A study of Mus musculus with 2 samples.

Results

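The miR-29 and miR-101 families were described in hearts of wild type C57BL/6 mouse embryos at embryonic day 9.5 (E9.5 WT), when the heart tube is remodelled into chambers. Members were all precursor entries whose mature miRNA, ignoring the arm and the copy number, was named miR-29a, miR-29b, miR-29c, miR-101a, miR-101b or miR-101c. The rule found 5 of the 620 entries listed in at least 1 replicate, and the same 5 were among the 471 entries listed in both. They were miR-29a-3p, miR-29b-1-3p, miR-29b-2-3p, miR-29c-5p and miR-101a-3p, whereas miR-101b and miR-101c were not listed in either replicate. Small RNA was sequenced from total RNA in 2 replicates with single-end reads of 50 nt, and no other group was measured, so no conditions were compared. The labels do not say whether the replicates came from separate embryos or pools, and p-values and intervals below cover the counting of reads only.

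Each miRNA is cut from a hairpin whose arms are called 5p and 3p, and bases 2 to 8 of the mature strand, the seed, pair with target mRNAs. In many tissues miR-29 acts on mRNAs of collagens and other extracellular matrix proteins, and on those of DNA methyltransferases and TET enzymes. It is known to be low in the embryo and to rise with maturation, and in the adult heart it is known as a restraint on fibrosis. MiR-101 is best known for acting on Ezh2, the methyltransferase of Polycomb repressive complex 2, and in heart fibroblasts it acts on Fos.

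The annotated mature sequences (RefSeq) are shown because the families are defined by them, with the seed in capitals.
mmu-miR-29a-3p: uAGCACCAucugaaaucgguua
mmu-miR-29b-3p: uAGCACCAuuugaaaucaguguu
mmu-miR-29c-3p: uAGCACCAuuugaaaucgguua
mmu-miR-101a-3p: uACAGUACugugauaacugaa
mmu-miR-101b-3p: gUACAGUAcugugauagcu
mmu-miR-101c: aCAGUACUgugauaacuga
The 3 miR-29 sequences shared the seed AGCACCA and differed further along. With positions counted from 1 at the 5′ end, miR-29a differed from miR-29c by C10U alone over the 22 bases compared. It differed from miR-29b by C10U, G18A, U21G and A22U. MiR-101b begins 1 base upstream of miR-101a and, at the positions of miR-101a, differs from it by A16G over the 18 bases compared. The annotated miR-101c is bases 2 to 20 of miR-101a, so a shortened miR-101a read has its letters.

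The sequences that held the reads in the hearts were not all the annotated ones. The deposited consensus sequences are printed with bases 2 to 8 in capitals, and each was the same in both replicates.
miR-29a-3p consensus: cUAGCACCaucugaaaucggu
miR-29b-3p consensus (both loci): uAGCACCAuuugaaaucagugu
miR-29c-5p consensus: uGACCGAUuucuccuggugu
miR-101a-3p consensus: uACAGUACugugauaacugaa
The miR-101a consensus was the annotated sequence. The miR-29a consensus began 1 base upstream of the annotated 5′ end and ended 2 bases short of the annotated 3′ end, which makes UAGCACC its bases 2 to 8. Such an upstream start was rare, with 11 of the 363 consensus sequences that could be matched to a RefSeq miRNA in replicate 1 (3.03%) and 9 of 357 in replicate 2 (2.52%), while 89.5% and 91.0% began at the annotated base. The letters that pair with this offset seed, GGTGCTA, are those that pair with bases 2 to 7 of the annotated miR-29 followed by A, and both forms therefore share that kind of match. The consensus of miR-29b lacked the last base of the annotation. Annotated miR-29b ends in AGUGUU, a hexanucleotide known to direct it to the nucleus and held by 12 of 1674 RefSeq mature miRNAs (0.717%), and these letters were not in its deposited consensus. The files give 1 consensus per entry and not the reads themselves, so the mixture of ends within an entry was not analysed here.

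The labelled tissue was checked against marker miRNAs. MiR-1a, miR-133a, miR-208a, miR-208b and miR-499, all expressed in heart muscle, together took 22.6% of the mature reads in replicate 1 and 23.5% in replicate 2, although miR-208a was listed only in replicate 1. Most of this was miR-1a, at 19.9% and 21.0%, and miR-133a, at 2.46% and 2.38%. Endothelial miR-126a took 2.90% and 2.87%, the liver miRNA miR-122 took 0.0421% and 0.0554%, and the neural miRNAs miR-9 and miR-124 together took 0.0193% and 0.0148%. MiR-499, at 0.167% and 0.147%, lay above miR-122. Below it lay miR-208b, at 0.0380% and 0.0329%, and miR-208a, at 0.0174% in replicate 1. The erythroid miRNAs miR-451a and miR-486a summed to 0.219% and 0.271%. These sums count a mature sequence at each of its loci, and counted once they were 15.6% and 16.3% for heart muscle, 3.95% and 3.94% for endothelium, 0.0575% and 0.0761% for liver, 0.00660% and 0.00508% for neural and 0.154% and 0.190% for erythroid miRNAs. The depth, summed over precursor entries, was 4942257 mature reads in 568 entries in replicate 1 and 4806179 in 523 entries in replicate 2. A mature sequence with several loci adds its reads to this sum at each of them. The sum is therefore larger than with each mature sequence counted once. Levels below are mature reads per 1000000 mature reads of this sum in a replicate (RPM), with no correction for length since the strands are of nearly equal length. They are lower than with each mature sequence counted once, where the mean share of miR-101 was 0.142% in place of 0.104%.

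MiR-101a was the most abundant member, miR-29a came next, and miR-29b and miR-29c-5p were rare. The mature reads of miR-101a-3p numbered 5908 and 4226, or 1195 (95% Wilson interval 1165 to 1226) and 879 (853 to 906) RPM in replicates 1 and 2. Its mean of 1037 ± 224 RPM (SD, n = 2) placed it at rank 93 of the 471 entries listed in both replicates. In the heart tissue sampled here, fewer cells of a type and less RNA per cell cannot be told apart.

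MiR-29a-3p, the abundant strand of the family, had 734 and 770 mature reads. These are 149 RPM (138 to 159.7) in replicate 1 and 160.2 RPM (149 to 172) in replicate 2, with overlapping intervals. The mean was 154 ± 8.27 RPM (SD, n = 2), at rank 198. The entries closest to it in level over both replicates were miR-1964-3p with 710 and 791 reads, miR-15b-5p with 718 and 731, and miR-194-5p with 717 and 731, by the distance between log2 shares in the 2 replicates. For miR-101a the closest were let-7i-5p with 5773 and 5374 reads, miR-140-3p with 4572 and 4096, and miR-181d-5p with 4584 and 4556.

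MiR-29b is encoded at 2 loci that give the same mature strand. Both entries counted 27 reads on the mature strand in replicate 1 and 30 in replicate 2, equal at both loci, so these reads cannot be assigned to either locus. Their level was 5.46 RPM (3.75 to 7.95) and 6.24 RPM (4.37 to 8.91), with a mean of 5.85 ± 0.551 (SD, n = 2) at rank 369. MiR-29a had 27.2 times the reads of miR-29b in replicate 1 and 25.7 times in replicate 2.

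The miR-29c entry held reads of the 5p arm, and its window did not cover the 3p arm that has the family seed. Its 12 and 16 reads are 2.43 RPM (1.39 to 4.24) and 3.33 RPM (2.05 to 5.41), with a mean of 2.88 ± 0.637 (SD, n = 2) at rank 410. Both values lay above a floor set here at 3 reads, which is 0.607 and 0.624 RPM. That floor is no limit of the deposited counts, which also list entries with fewer reads. In the order of levels, miR-101a, miR-29a and miR-29b were separated beyond their intervals in each replicate, while the intervals of miR-29b and miR-29c-5p overlapped in both.

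**Figure D1:**
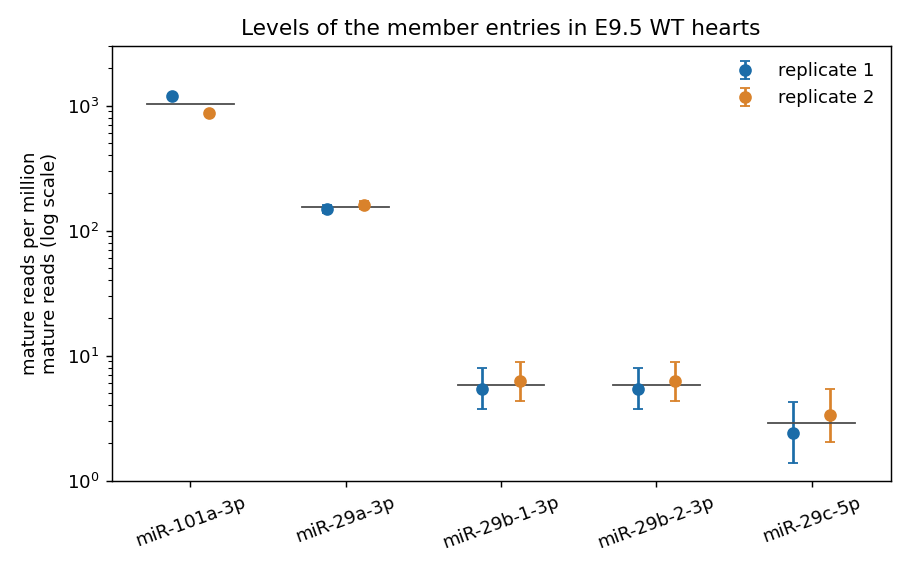
Mature reads per 1000000 mature reads (RPM) on a log scale for the 5 member entries; points are the 2 replicates, bars are 95% Wilson intervals and horizontal lines are means. MiR-101a-3p sits at 1195 and 879, miR-29a-3p at 149 and 160.2, the miR-29b entries at 5.46 and 6.24, and miR-29c-5p at 2.43 and 3.33.

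Summed over its 4 entries, the miR-29 family took 800 and 846 mature reads, or 0.0162% and 0.0176% of all mature reads. This sum counts the miR-29b reads at both loci and includes miR-29c-5p. Restricted to miR-29a-3p and miR-29b-3p, whose annotated strands have the family seed, and with miR-29b counted once, 761 and 800 reads remained. Of these, 734 and 770 were of miR-29a, whose consensus began 1 base upstream. AGCACCA stood at bases 2 to 8 in the consensus of miR-29b, with 27 and 30 reads, and not in that of miR-29a. A consensus does not give the start of each read, so how many miR-29a reads began at the annotated base was not analysed. MiR-101a, the only listed member of its family, held 0.120% and 0.0879%. The ratio of the miR-29 family to miR-101 was 0.135 in replicate 1 and 0.200 in replicate 2, a mean of 0.168 ± 0.0458 (SD, n = 2). The muscle miRNA miR-1a, counted at its miR-1a-1 entry, had 83.4 and 119 times the reads of miR-101a and 671 and 654 times those of miR-29a.

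Only miR-101a differed between the replicates beyond the counting of reads. The exact binomial test, adjusted over the 431 entries whose mature reads summed to 20 or more, called 177 (41.1%), and of the 5 members, all tested, 1 was called. MiR-101a-3p was lower in replicate 2, by a log2 ratio of -0.44 with an adjusted p of 6.05e-52 in that exact test. A difference of at least this absolute size was seen in 65 of the 431 entries (15.1%). When only the 185 entries of the same mature arm that reached 1000 reads in each replicate were considered, however, miR-101a had the fifth largest absolute log2 ratio, against a median of 0.12.

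The miR-29 entries each had a higher share in replicate 2, but none was called. Replicate 2 exceeded replicate 1 by a log2 ratio of 0.11 for miR-29a-3p (adjusted p = 0.259, exact binomial test), 0.19 for both miR-29b entries (adjusted p = 0.788, same exact test) and 0.46 for miR-29c-5p (adjusted p = 0.599, same exact test). The median absolute log2 ratio of all entries tested was 0.19. Of the 177 calls, 119 were higher in replicate 2 and 58 in replicate 1. This split followed the scaling, at 86 and 92 of 178 calls (41.3%) with edgeR's TMM and at 78 and 98 of 176 (40.8%) with DESeq2's size factors, and miR-101a was called as higher in replicate 1 with each. When the spread between the replicates themselves was put into the test, as edgeR's common dispersion with a biological coefficient of variation of 15.3%, 3 of 431 entries were called (0.696%) and miR-101a was not (adjusted p = 1, unadjusted p = 0.159, edgeR's exact test). That dispersion holds the replicate difference itself.

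**Figure D2:**
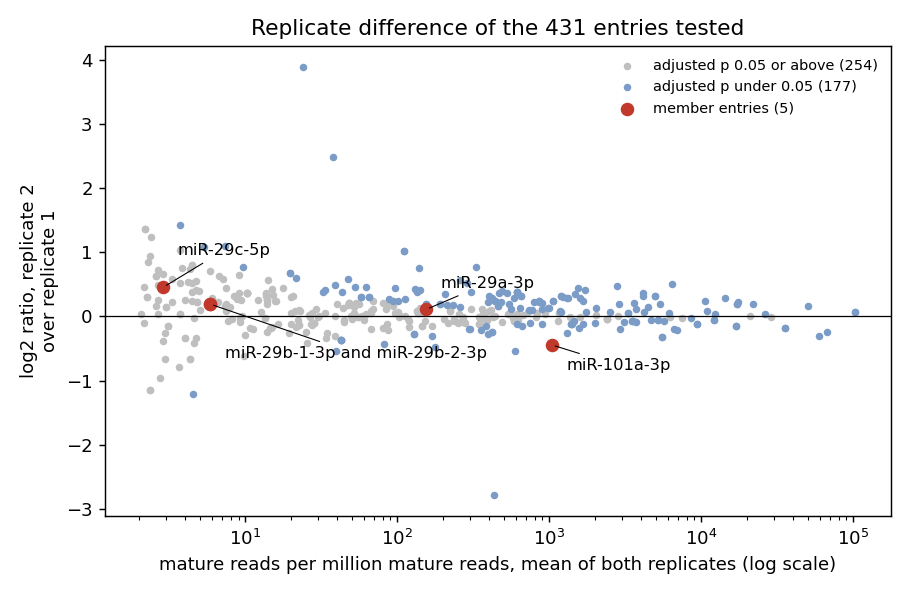
Log2 ratio of replicate 2 over replicate 1 against the mean level on a log scale, for the 431 entries tested. Blue points have an adjusted p under 0.05 (177), grey points do not (254), and red points are the 5 members; miR-101a-3p lies at -0.44 and the miR-29 entries between 0.11 and 0.46.

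All members overlapped annotated hairpins, and each deposited precursor had the sequence of mm9 at its position. MiR-29a and miR-29b-1 are neighbours on chromosome 6, at chr6:31012675-31012732 and chr6:31013026-31013088, both on the minus strand and 293 bp apart. Neither lay in an annotated gene other than its own miRNA gene (GENCODE vM1), the nearest being Gm13834 at 24877 and 24521 bp. MiR-29b-2 and miR-29c are neighbours on chromosome 1, at chr1:196863244-196863306 and chr1:196863726-196863775 on the plus strand, 419 bp apart. Both lay in an exon of the lincRNA A330023F24Rik at chr1:196802569-196864102. MiR-101a lay at chr4:101019562-101019618 on the minus strand, in an exon of the non-coding transcript E130102H24Rik at chr4:101019136-101028853, and its window in replicate 2 was 1 base longer at its 5′ end. The annotated Mir101b lies on chromosome 19, at chr19:29209769-29209865, and gave no entry.

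The mean share of miR-29a was 26.4 times that of miR-29b-1, an absolute log2 ratio of 4.72, and 84.6% of the 117 pairs of adjacent entries within 10 kb on a strand had a smaller ratio. Since both miR-29b loci carry the same reads, the part that came from chromosome 6 cannot exceed the value used here. For miR-29b-2-3p and miR-29c-5p the absolute log2 ratio was 1.02, below the median of 1.92 of all pairs, with the 3p arm of one compared against the 5p arm of the other.

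The opposite arms, which differ in sequence between the miR-29b loci, gave reads of both. Star reads, those of the arm opposite the mature one, numbered 2 in replicate 1 and 9 in replicate 2 at miR-29b-1, and 8 and 5 at miR-29b-2. The deposited star sequences are shown since, unlike the mature strand, they differ between the loci.
miR-29b-1 star: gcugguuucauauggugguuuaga
miR-29b-2 star: cugguuucacaugguggcuuaga
Summed over replicates, 11 reads came from miR-29b-1 and 13 from miR-29b-2. The order of the loci turned between the replicates, and the star reads of both loci together were 10 in replicate 1 and 14 in replicate 2. Both loci had star reads, at counts too low to rank them.

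Star reads made up a larger share at the miR-29b loci than at miR-29a or miR-101a. At miR-29b-1 the star share of both arms was 6.90% (95% Wilson interval 1.91 to 21.96) in replicate 1 and 23.1% (12.6 to 38.3) in replicate 2, and at miR-29b-2 it was 22.9% (12.1 to 39.0) and 14.3% (6.26 to 29.4). Because the mature reads of miR-29b are listed in full at both loci, each of these shares sets the star reads of 1 locus against all mature reads of miR-29b. Among the 91 entries with 20 to 99 mature reads in sum and the same mature arm, the median star share was 1.85%, and 20 entries had a share at or above that of miR-29b-1 and 16 at or above that of miR-29b-2.

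MiR-29a had 1 star read in each replicate, a share of 0.136% (0.0240 to 0.767) and 0.130% (0.0229 to 0.731). MiR-101a had 0 of 5908 reads on the star arm in replicate 1, with an upper bound of 0.0650%, and 1 of 4227 in replicate 2, or 0.0237% (0.00418 to 0.134). In the 303 entries of the same arm that reached 100 mature reads in each replicate, the median star share was 0.959%, and 34.0% of entries had a lower mean share than miR-29a and 24.4% a lower one than miR-101a. Over all members, 11 of 6719 reads in replicate 1 and 16 of 5088 in replicate 2 were star reads, a mean of 0.239 ± 0.107% (SD, n = 2). The 3p strand thus carried nearly all reads of miR-29a and miR-101a. Fisher's exact test between the replicates called 34 of 338 entries (10.1%) and 0 of the 2 members deep enough to be tested, miR-29a and miR-101a (adjusted p = 1 for both, and none had an unadjusted exact p under 0.05). None of the 5 members had loop reads in either replicate.

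**Figure D3:**
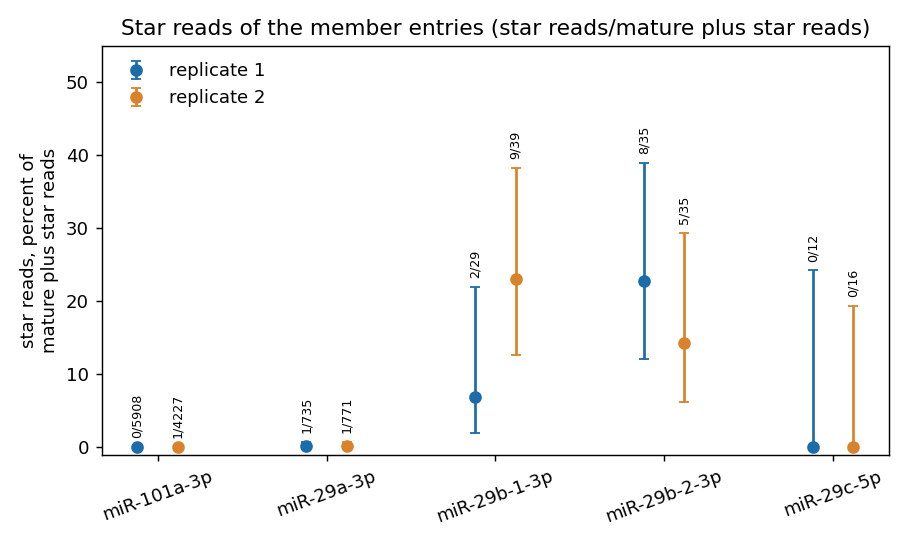
Star reads as a percent of mature plus star reads for the 5 member entries, with 95% Wilson intervals and the read numbers above each bar. The miR-29b entries lie between 6.90% and 23.1%, miR-29a-3p and miR-101a-3p at 0.136% or less, and the intervals of miR-29c-5p reach 24.2% at 12 reads, where the star part is not the annotated 3p arm.

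At miR-101a the 1 star read of replicate 2 stood beside a very different miRDeep2 score, the program's log-odds that a precursor is genuine. The score was 2.5 in replicate 1 and 2100 in replicate 2, although replicate 1 had more mature reads. Of entries that reached 1000 mature reads, the 40 of 193 without star reads in replicate 1 had scores of at most 2.6, and so had the 37 of 190 in replicate 2. Those with star reads had medians of 2000 and 2100, but their lowest scores were -3 and -23. Of the 7 such entries with star reads in 1 replicate only, 5 had the higher score in the replicate with star reads. The score of miR-29a was 1.9 in both replicates, despite its star reads, and the miR-29b entries scored 15 and 20 at miR-29b-1 and 18 in both replicates at miR-29b-2. A score thus did not follow the abundance of the members, and the part of the star reads in it was not tested.

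The miR-29c entry rests on a window that missed its 3p arm. The deposited precursor of 50 nt began 15 bases upstream of the annotated hairpin (chr1:196863741-196863828) and ended inside the 5p arm. It covered 0% of the annotated 3p arm, with 18 bases between it and the last base of the consensus. The window and the annotated hairpin are printed to show what was counted, with the mature consensus in capitals in the window and both annotated arms in capitals in the hairpin.
miR-29c window: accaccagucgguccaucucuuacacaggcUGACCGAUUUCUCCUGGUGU
Mir29c hairpin (RefSeq): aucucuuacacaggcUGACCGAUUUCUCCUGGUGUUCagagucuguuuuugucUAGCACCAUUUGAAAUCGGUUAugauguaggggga
Reads of miR-29c-3p are therefore in no entry of its own locus, and the first 19 bases of miR-29c-3p were in 0 of the mature and 0 of the star consensus sequences of either replicate. Whether such reads were counted at miR-29a, from which it differs by C10U, was not tested. The star sequence of this entry lies upstream of the annotated 5p arm, so its 0 star reads say nothing of the 3p arm. Windows that covered none of the annotated opposite arm were found at 31 of 317 entries (9.78%) in replicate 1 and 32 of 314 (10.2%) in replicate 2. This window folded to -15.9 kcal/mol, against -34.8 kcal/mol for the annotated hairpin, which at 88 nt is longer. Per base these were -0.318 and -0.395 kcal/mol. By that measure the window was more stable than 18.1% of entries in replicate 1 and 16.3% in replicate 2. Its score was 0.9 in both replicates.

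**Figure D4:**
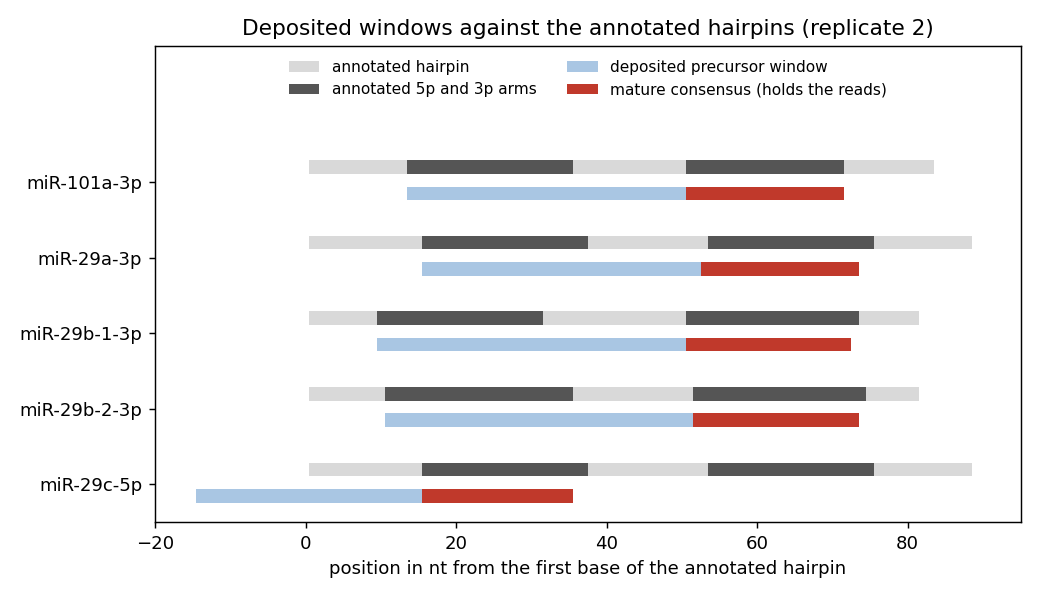
Deposited precursor windows (blue, with the mature consensus in red) below the annotated hairpins (light grey, with both arms in dark grey), in nt from the first base of each annotated hairpin, for replicate 2. The windows of miR-101a and of the 3 other miR-29 entries span both arms, whereas that of miR-29c-5p begins 15 bases upstream of the hairpin and ends within the 5p arm.

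The other windows spanned both arms and ranged in stability. Per base, miR-101a folded to -0.523 kcal/mol in replicate 1 and -0.541 in replicate 2, more stable than 88.7% and 91.2% of all entries. The miR-29a window was at -0.366, miR-29b-1 at -0.381 and miR-29b-2 at -0.344, all less stable than the medians of all entries of -0.392 and -0.398. In replicates 1 and 2, miR-29a was more stable than 36.3% and 34.2% of entries. For miR-29b-1 this was 43.8% and 41.7%, and for miR-29b-2 27.3% and 25.6%. All 5 members were marked as having a significant folding p-value by miRDeep2, as were 78.2% and 77.1% of all entries.

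No other listed miRNA had either seed at bases 2 to 8. The letters AGCACCA stood there in the 2 miR-29b entries and ACAGUAC in miR-101a, and in no entry outside the families in either replicate. Counting each mature sequence once, the families took ranks 69 (miR-101a), 154 (miR-29a), 298 (miR-29b) and 333 (miR-29c-5p) of 388.

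Matches to the seeds were sought in annotated 3′ UTRs, as a description of which mRNAs of the pathways could pair with the families. A match was 7 letters pairing with bases 2 to 8 (TGGTGCT for miR-29, GTACTGT for miR-101) or pairing with bases 2 to 7 and followed by A (GGTGCTA and TACTGTA), on the strand of the mRNA. These 2 kinds overlap where all 8 letters are present, and an overlap was counted as 1 match. The seeds were those of the annotated sequences. A TGGTGCT match without the A does not pair with all of bases 2 to 8 of the miR-29a consensus. The gene lists were drawn from what is known of both families' targets, so a high share in them is not independent evidence. No mRNA values were analysed here. Of all 19893 protein-coding genes with a 3′ UTR, 14.5% held a miR-29 match and 15.6% a miR-101 match in their longest 3′ UTR. These shares were 9.79% and 10.6% in the shortest 3′ UTR. For matches of all 8 letters in the longest they were 2.51% and 2.62%. Of the 37 listed genes with a 3′ UTR, 22 held a miR-29 match and 15 a miR-101 match. Listed genes had longer UTRs, with a median of 1497 bases against 836. In UTRs of 881 to 2250 bases, 17.4% of 6201 genes held a miR-29 match and 18.8% a miR-101 match, beside 13 and 4 of the 19 listed genes of that length.

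In the extracellular matrix list, a miR-29 match was in 12 of the 13 genes with a UTR and a miR-101 match in 0. The other gene, Col6a3, held none in its longest 3′ UTR and 1 miR-29 match in its shortest. With the shortest 3′ UTR of each gene, 10 of the 13 held a miR-29 match. Col5a1, a chain of type V collagen, had the most with 4. Matches of all 8 letters were in 8 of the 13. The miR-29 matches of Col4a2 and Mmp2 were all TGGTGCT without the A.

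Among enzymes that write or remove DNA methylation, 6 of 7 genes held a miR-29 match and 4 of 7 a miR-101 match. Tet3 had 10 miR-29 matches and Tet1 had 8, both encoding enzymes that oxidize 5-methylcytosine, and the de novo methyltransferase gene Dnmt3a had 6. All 8 letters were in 2 of those of Tet3, 1 of Tet1 and 2 of Dnmt3a. GGTGCTA without the leading T was in 2, 1 and 1. Only these matches pair with all of bases 2 to 8 of the miR-29a consensus. The 3′ UTRs of these genes are long, at 5669 bases for Tet3, 7962 for Tet1 and 6696 for Dnmt3a. Tet3 has 1 length of 3′ UTR, but in the shortest ones of Tet1 (165 bases) and Dnmt3a (95 bases) 0 matches remained, and with the shortest 3′ UTRs 4 of the 7 genes held a miR-29 match and 2 a miR-101 match. Dnmt1, the maintenance methyltransferase gene, held no match of either kind in 315 bases.

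In the list of Polycomb repressive complex 2, a miR-101 match was in 3 of 7 genes (42.9%) and a miR-29 match in 1 (14.3%). The shares of all protein-coding genes were 15.6% and 14.5%. Ezh2 held 2 miR-101 matches in a UTR of only 267 bases, and Eed and Rbbp7, further subunits or partners of the complex, held 1 each. The gene with a miR-29 match was Jarid2, an accessory subunit. In the shortest 3′ UTRs, the matches of Jarid2 and Rbbp7 were absent, which left 0 genes for miR-29 and 2 for miR-101. Of the 10 growth and survival genes, listed because they are named as targets of these families, 8 held a miR-101 match and 3 a miR-29 match. Mycn, a transcription factor gene of the Myc family, had 3 miR-101 matches in 910 bases, and Tet2 and Dnmt3a also had 3, in 3058 and 6696 bases. Col6a3, Col4a2, Mmp2, Dnmt1, Eed, Rbbp7 and Jarid2 were named after their counts were seen.

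A match of all 8 letters is printed for 2 genes with the most matches to each family, ties being settled by matches of all 8 letters, of which Dnmt3a had 0 for miR-101, with the match in capitals and the mm9 position of the stretch on the minus strand.
Tet3 (miR-29), chr6:83314319-83314348: agtctaataaaTGGTGCTAtggtgtttcaa
Tet1 (miR-29), chr10:62268779-62268808: cttgaaggagaTGGTGCTAgctgaacaatt
Mycn (miR-101), chr12:12943305-12943334: ttcacacctaaGTACTGTAagaatacctca
Tet2 (miR-101), chr3:133128161-133128190: ttagtattttaGTACTGTAaaaaattaaat
In Tet3 and Tet1 the last 7 capitals, GGTGCTA, pair with bases 2 to 8 of the miR-29a consensus that began 1 base upstream. Matches to both families were in 7 of the listed genes, namely Dnmt3a, Tet1, Tet2, Tet3, Fos, Mcl1 and Mycn, of which Fos and Mcl1 were also named after their counts were seen.

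**Figure D5:**
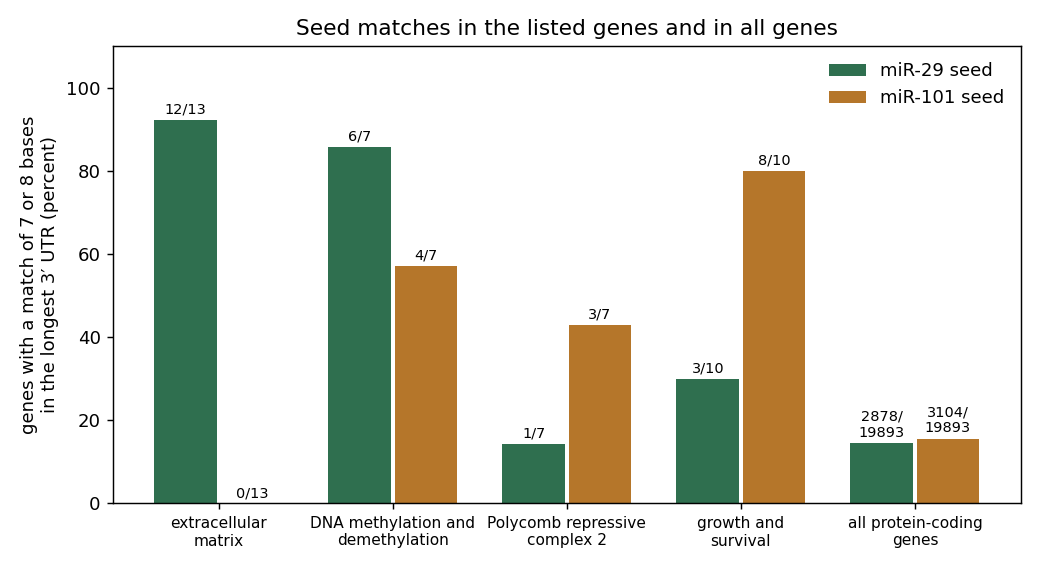
Percent of genes with a match of 7 or 8 bases to the miR-29 or miR-101 seed in the longest 3′ UTR, for the 4 lists and for all protein-coding genes, with gene numbers above the bars. MiR-29 matches were in 12 of 13 extracellular matrix genes, where miR-101 matches were in 0, and miR-101 matches were in 8 of 10 growth and survival genes. The lists were drawn from known targets of both families.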

How the data were processed

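Total RNA of E9.5 WT hearts was extracted with TRIZOL, made into libraries with the TruSeq small RNA kit and sequenced on HiSeq 2500. With miRDeep2 run on mm9 for each replicate, the authors made and deposited unnormalized counts of mature, star, loop and all reads per known precursor, and the miRDeep2 score, a rounded log-odds score. Versions of miRDeep2 and miRBase, and read trimming, are not given in the sources used here.

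Table positions were converted to coordinates counted from 1, after which all 1091 precursors equalled the NCBIM37 (mm9) sequence. Entries of the replicates were paired at an overlap of at least 50% of both precursors on a strand. Names give the arm that held the reads, also where the tables name the other. Shares are of all mature reads, summed over entries. Replicates were tested by the two-sided exact binomial test (at least 20 mature reads in sum) and Fisher's exact test of mature and star reads (at least 100). Each was adjusted by Benjamini-Hochberg over all entries tested, with a threshold of 0.05. Both were run on simulated counts with planted differences. Those counts had no other spread between replicates beyond counting, so they say nothing of such spread in these hearts. Folding used RNAfold 2.7.2. Sequences are from the tables and from RefSeq (GRCm38.p6), genes and UTRs from GENCODE vM1. Of 38 listed genes, 37 had an annotated 3′ UTR in a protein-coding transcript, and Eln was not analysed here. Alternatives used edgeR 4.0.16 and DESeq2 1.42.0 under R 4.3.3, and other steps Python 3.11.15 with scipy 1.17.1.

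The text names all member entries, the 3 entries nearest in level to the highest entry of each family, and the listed genes with the most seed matches, of which at most 2 per family are shown with a site. Members and lists were chosen with earlier results of these data known.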

Additional observations from a re-analysis of the deposited data

How the results depend on the processing

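The shares rise where each mature sequence is counted once, because the total of mature reads is then smaller, to 0.0223% for the miR-29 family and 0.142% for miR-101, against 0.0169% and 0.104%. Counting all reads of the precursor, or only entries that reached 10 mature reads in each replicate, moved neither share nor their ratio by more than the SD of 2 replicates. Leaving out the miR-29c entry, added after seeing the data and run for the miR-29 share alone, gave 0.0166%. Left out in turn, the replicates gave 0.0162% to 0.0176% for miR-29, 0.0879% to 0.120% for miR-101, 0.135 to 0.200 for the ratio and 0.164% to 0.314% for the star share of the members. The number of entries called between replicates ran from 138 to 178 under the other scalings, read minimums and with each mature sequence once, always with miR-101a as the 1 member called, but fell to 3, with 0 members, in the negative binomial test, by the spread put into it. With only 8-base matches, 14 of the listed genes held a miR-29 match and 8 a miR-101 match, in place of 22 and 15. The shares of all protein-coding genes were then 2.51% and 2.62%. With the shortest 3′ UTR of each gene 17 and 11 listed genes did, beside 9.79% and 10.6% of all genes.

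The counts of miR-29b and miR-29c-5p are too small to order their loci or to show differences between the replicates. Shares are of reads, and how well each sequence enters a small RNA library was not measured. No paired analysis was possible because there is 1 group.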
